A study of Rattus norvegicus with 12 samples.

Results

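The oligodendrocyte lineage genes described here are 9 rat genes, followed on 12 expression arrays of primary hippocampal cultures. The 5 myelin genes are Mbp, Mog, Mag, Mobp and Cnp, and the 4 progenitor genes are Olig1, Olig2, Sox10 and Pdgfra. Each was found through the transcript accession that the array gives for its probes. The 9 genes have 13 probes among the 30367 non-control probes, and each gene is represented by its brightest probe, out of 15154 genes that could be named in this way. The cultures were made from the hippocampus of Wistar rat embryos at embryonic day 18 and kept for 14 to 15 days in vitro. They were deprived of oxygen and glucose together for 2 h (OGD, a culture model of ischemia) and then returned to conditioned medium for 7 h or 24 h. Control cultures went through the same steps in a glucose-containing saline with air. There are 3 arrays for each of control 7 h, OGD 7 h, control 24 h and OGD 24 h, with 200 ng of RNA per array. The study used 3 independent cultures as biological replicates. Whether a replicate number stands for the same culture in different groups is not stated. The question asked of these genes was whether myelin genes and progenitor genes differed between OGD and control at either time.

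Oligodendrocytes make the myelin sheath around axons in the central nervous system, and arise from dividing progenitor cells. Progenitors are kept in number by platelet-derived growth factor, which acts through the receptor that Pdgfra encodes. Olig1, Olig2 and Sox10 are transcription factors of the lineage, present from the progenitor stage onward, and Sox10 also drives myelin genes in cells that mature. Mbp, Mog, Mag, Mobp and Cnp encode proteins of myelin or of the cytoplasm of myelinating cells and are classical marks of the mature cell. Oligodendrocyte progenitors are known from work on white matter to be sensitive to ischemia and to glutamate.

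The cultures were prepared as neuronal cultures, so the lineage is a minor component and every value below comes from a mixture of cells. In such bulk RNA, fewer cells of a type and less RNA per cell cannot be told apart. Values are given as log2 intensity of a probe minus the median of its array, called the centered log2 level here, and are compared only for the same probe between arrays. Both sets of markers were present: the brightest probe of 8 of the 9 genes was well above background on all 12 arrays, and that of Mog on 11, the exception being OGD 24 h replicate 1. The neuronal markers were also present, all 14 of them well above background on every array. Array medians ranged from 130.6 to 660.3 intensity units, and 78.4% to 87.1% of spots per array exceeded background by the scanner software's own criterion. The lowest medians were those of OGD 24 h replicate 1, at 130.6 units, and of OGD 7 h replicate 1, at 234.2 units. Each of the 6 slides carried 1 control and 1 OGD array, of the same recovery time and replicate number. On 3 of the slides the OGD array had been scanned before its control, by 211 min for replicates 1 and 2 at 7 h and by 177 min for replicate 1 at 24 h. The part of the scan time or of the array brightness in the values below was not tested. Replicate 1 decides several values, and the main ones are also given without it.

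The 250 bases before the start of transcription are shown for a progenitor gene that was low on some OGD arrays at 7 h, Pdgfra, for the progenitor gene whose OGD arrays all lay above the controls at 24 h, Olig2, and for a myelin gene with almost no difference, Cnp. The sequences are RefSeq promoter windows of the rat build GRCr8, at chr14:33408517-33408766 (minus strand), chr11:43961335-43961584 (plus strand) and chr10:86011254-86011503 (plus strand). Capitals mark E-boxes (CANNTG, searched on both strands), the kind of motif that Olig1 and Olig2, like other basic helix-loop-helix factors, bind.
Pdgfra: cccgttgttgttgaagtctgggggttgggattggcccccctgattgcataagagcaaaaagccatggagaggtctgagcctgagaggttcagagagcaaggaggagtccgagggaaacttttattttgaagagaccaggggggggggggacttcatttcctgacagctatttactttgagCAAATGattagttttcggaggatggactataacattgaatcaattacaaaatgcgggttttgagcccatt
Olig2: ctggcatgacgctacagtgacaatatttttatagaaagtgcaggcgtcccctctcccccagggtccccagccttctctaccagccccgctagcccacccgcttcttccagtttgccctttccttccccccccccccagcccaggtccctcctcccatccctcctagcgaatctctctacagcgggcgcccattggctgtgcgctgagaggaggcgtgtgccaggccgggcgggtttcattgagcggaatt
Cnp: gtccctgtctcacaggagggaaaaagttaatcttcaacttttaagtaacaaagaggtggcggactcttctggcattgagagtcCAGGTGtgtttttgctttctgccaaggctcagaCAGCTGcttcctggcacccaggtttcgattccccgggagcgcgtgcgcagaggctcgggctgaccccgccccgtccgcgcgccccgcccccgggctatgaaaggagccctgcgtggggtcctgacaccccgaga
The windows of Pdgfra and Cnp hold 1 and 2 E-boxes, and that of Olig2 holds 0. Windows were matched for 6 of the 9 genes, 7 windows in all because Mbp has 2, and not for Olig1, Sox10 and Mog. Of the 7 windows, 5 hold an E-box, a motif found in 65.5% of 33469 rat promoter windows of this length. The SOX core ACAAAG is in 4 of the 7, against 16.3% of all windows, and in Cnp it lies near the upstream end. The core ACGTG of hypoxia response elements is in 0 of the 7, against 16.6% of all windows. A match describes the letters only and is no evidence of binding in these cultures.

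At 7 h after OGD the 4 progenitor genes had lower mean levels than in control cultures, and the spread between the OGD cultures was wide. Pdgfra, used here as a progenitor gene, had centered log2 levels of 5.02, 4.82 and 4.88 in control replicates 1, 2 and 3, and of 2.56, 4.22 and 5.20 in the OGD replicates. The controls lay close together, while OGD replicate 1 was low, replicate 2 was below all controls and replicate 3 was above them, so that the groups overlapped. The mean log2 difference of Pdgfra was -0.92 ± 0.53 (SE, n = 3 per group, limma adjusted p = 0.509). Without OGD 7 h replicate 1 it was -0.20, and without OGD 7 h replicate 3 it was -1.52, with an unadjusted limma p above 0.05 in the former fit and under it in the latter.

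Sox10, the transcription factor shared by progenitors and mature oligodendrocytes, had the same order of replicates. Its centered log2 levels were 2.25, 2.52 and 2.20 in the control cultures and 0.34, 1.31 and 2.44 in the OGD cultures at 7 h. OGD replicates 1 and 2 were below all controls and replicate 3 lay within their range. The mean difference of Sox10 was -0.96 ± 0.43 on the log2 scale (SE, n = 3 per group), with an unadjusted limma p just under 0.05 (adjusted p = 0.42). It was the only gene of the 9 with an unadjusted p under 0.05 at 7 h, where 11.8% of all probes had one, 4.79% higher and 7.03% lower after OGD. The fold was 1.94, so it did not reach the 2-fold change that the study required beside p, and none of the 9 genes passed both thresholds, as 3.74% of all probes did. Its unadjusted limma p was above 0.05 in 11 of the 12 fits that left out 1 array, the exception being OGD 7 h replicate 3. The difference was -0.45 without OGD 7 h replicate 1 and -1.50 without OGD 7 h replicate 3.

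Olig1 and Olig2, paired transcription factors that set the lineage, differed little on average at 7 h. Olig1 had levels of 6.43, 6.18 and 6.26 in control cultures and 5.66, 6.09 and 6.64 after OGD, a log2 difference of -0.16 ± 0.31 (SE, adjusted p = 0.854). Olig2 had levels of 5.74, 5.71 and 5.34 in control cultures and 5.16, 5.58 and 5.65 after OGD, a log2 difference of -0.14 ± 0.20 (SE, adjusted p = 0.824). For both genes OGD replicate 1 was the lowest of the 6 arrays, and the groups overlapped. The 95% intervals of the differences were -0.85 to 0.52 for Olig1 and -0.59 to 0.31 for Olig2. When only replicates 2 and 3 were fitted (an alternative added once the values were known), both differences turned positive, to 0.14 for Olig1 and 0.09 for Olig2.

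At 24 h the same 4 genes were level with or above their controls. Olig2 had levels of 5.57, 5.99 and 5.81 in the control cultures and of 6.27, 6.14 and 6.41 after OGD. Every OGD culture was above every control culture, which was true in either direction of 17.9% of all probes. The log2 difference of Olig2 was 0.48 ± 0.20 (SE, n = 3 per group, 1.40-fold), with an unadjusted limma p under 0.05 (adjusted p = 0.344). It was the only gene of the 9 with an unadjusted p under 0.05 at 24 h, where 13.7% of all probes had one, 7.51% higher and 6.19% lower. None of the 9 genes passed both thresholds at 24 h, as 5.67% of all probes did. The difference of Olig2 on the 3 slides was 0.70, 0.15 and 0.60. The unadjusted limma p was above 0.05 when control 24 h replicate 1 (0.37) or 3 (0.49), OGD 24 h replicate 1 (0.48) or 3 (0.41), or either array of replicate 2 at 7 h (0.48) was left out. The second, dimmer probe of Olig2 differed by 0.20 ± 0.38 at 24 h (SE, adjusted p = 0.847), with overlapping groups.

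The other 3 progenitor genes had 24 h differences within the spread of the cultures. Pdgfra had levels of 4.82, 5.07 and 5.18 in controls and 4.77, 5.05 and 5.83 after OGD, a log2 difference of 0.19 ± 0.53 (SE, adjusted p = 0.915). Sox10 had levels of 2.89, 3.50 and 3.36 in controls and 3.04, 3.22 and 3.68 after OGD, a log2 difference of 0.06 ± 0.43 (SE, adjusted p = 0.994). Olig1 had levels of 6.94, 7.58 and 7.46 in controls and 7.04, 7.83 and 7.97 after OGD, a log2 difference of 0.29 ± 0.31 (SE, adjusted p = 0.687). In all 3 genes the groups overlapped, and OGD replicate 3 was the highest of the 6 arrays. The 95% interval of the 24 h difference was -0.99 to 1.38 for Pdgfra and -0.89 to 1.02 for Sox10, so a 2-fold change was not excluded by these arrays for either gene.

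**Figure D1:**
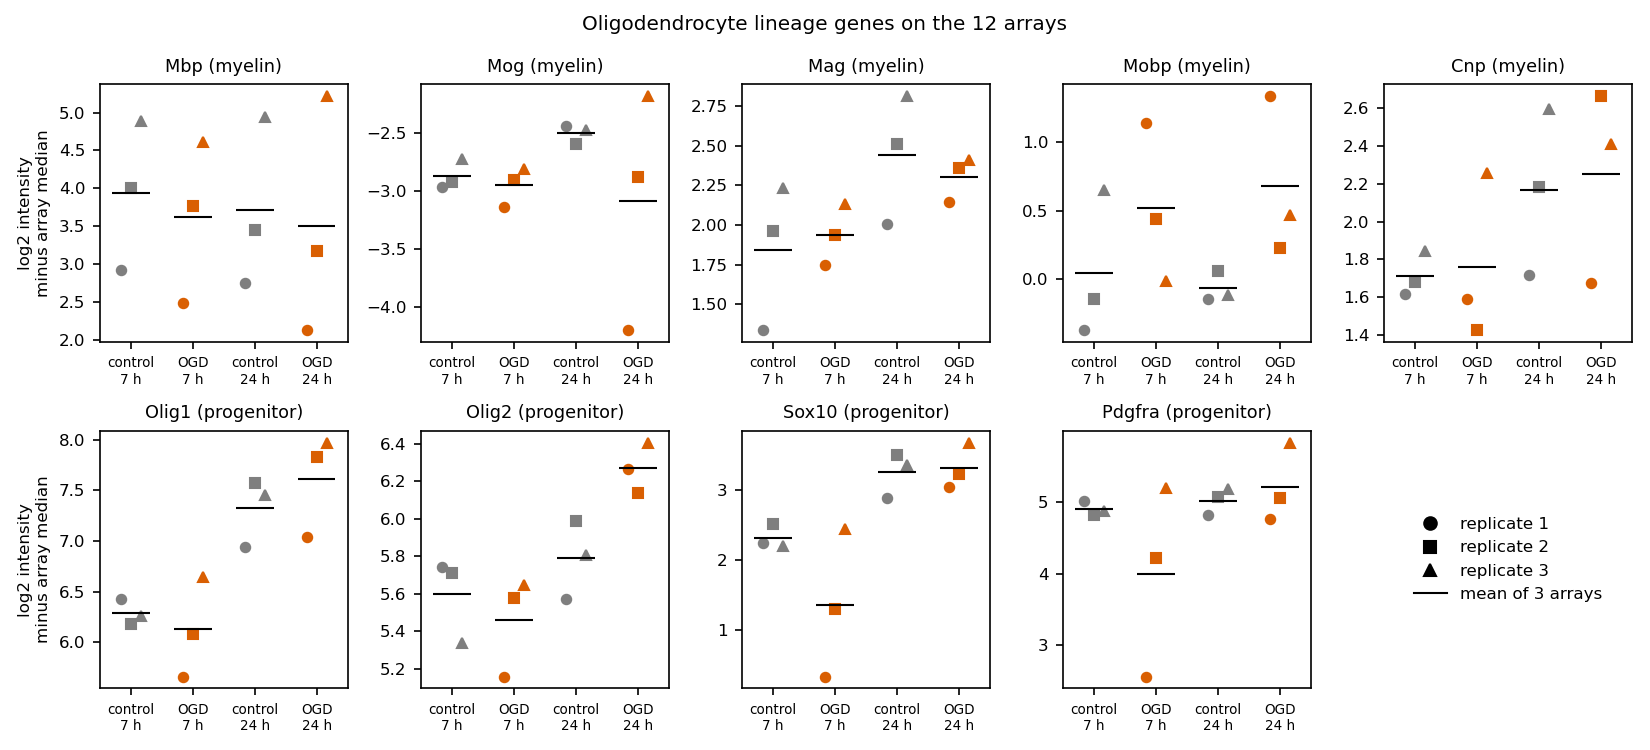
Centered log2 level (log2 intensity minus the median of the array) of the 9 genes on the 12 arrays, gray for control and orange for OGD, with a circle, square and triangle for replicates 1, 2 and 3 and a line at the mean of 3 arrays. Each panel has its own scale. At 7 h the OGD arrays of Pdgfra run from 2.56 to 5.20 while its controls run from 4.82 to 5.02, and at 24 h the OGD arrays of Olig2 all lie above its controls.

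The responses at 24 h and at 7 h were then compared in the same model. The difference between the responses (24 h minus 7 h) was positive for all 4 progenitor genes, 1.11 for Pdgfra, 1.02 for Sox10, 0.62 for Olig2 and 0.45 for Olig1 on the log2 scale. The 95% intervals all included 0, the nearest to excluding it being that of Olig2, from -0.02 to 1.25, and none of the 9 genes had an unadjusted p under 0.05 for this difference (adjusted p = 1 for each). Over all probes 3.58% had such a p, 2.18% with a positive and 1.40% with a negative difference, and none passed adjustment.

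In the control cultures, Olig1 was higher at 24 h than at 7 h. Its 3 control values at 24 h, from 6.94 to 7.58, were all above the 3 at 7 h, from 6.18 to 6.43. The log2 difference was 1.03 ± 0.31 (SE, n = 3 per group, 2.05-fold, limma adjusted p = 0.188), past both of the study's thresholds, as were 4.93% of all probes. It was under 2-fold, at 0.98, 0.91 and 0.97, without control 7 h replicate 2 or control 24 h replicate 2 or 3. Sox10 differed between the control groups by 0.93 ± 0.43 (SE, adjusted p = 0.352), while Olig2 and Pdgfra differed by 0.19 ± 0.20 and 0.12 ± 0.53 (adjusted p = 0.686 and adjusted p = 0.939). The 2 times were on different slides, so time and slide cannot be told apart in this comparison.

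The myelin genes showed no difference past the thresholds at either time. Cnp, an enzyme of the cytoplasm of myelinating cells, had levels of 1.62, 1.68 and 1.85 in control and 1.59, 1.43 and 2.26 in OGD cultures at 7 h, a log2 difference of 0.04 ± 0.32 (SE, adjusted p = 0.962). At 24 h its levels were 1.72, 2.18 and 2.59 in control and 1.68, 2.66 and 2.41 in OGD cultures, a log2 difference of 0.08 ± 0.32 (SE, adjusted p = 0.95). The groups overlapped at both times. Mag, a cell adhesion protein of the inner face of myelin, had levels of 1.34, 1.96 and 2.23 in control and 1.75, 1.94 and 2.13 in OGD cultures at 7 h. Its levels at 24 h were 2.0, 2.51 and 2.81 in control and 2.14, 2.36 and 2.41 in OGD cultures. The log2 differences of Mag were 0.09 ± 0.27 and -0.14 ± 0.27 (SE, adjusted p = 0.898 and adjusted p = 0.855), and the groups overlapped. The 95% intervals for Mag, -0.50 to 0.69 at 7 h and -0.74 to 0.46 at 24 h, lay within a 2-fold change in either direction. The second probe of Mag was well above background on 3 of the 12 arrays and is not used.

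Mog, a surface protein of the outermost myelin layer that appears late in maturation, was dim, from 4.09 to 52.6 intensity units. Its centered log2 levels at 7 h were -2.96, -2.92 and -2.72 in control and -3.13, -2.90 and -2.81 in OGD cultures, a difference of -0.08 ± 0.40 (SE, adjusted p = 0.94). At 24 h they were -2.44, -2.59 and -2.47 in control and -4.20, -2.88 and -2.18 in OGD cultures, a difference of -0.59 ± 0.40 (SE, adjusted p = 0.515). The lowest of these is the array on which Mog was not well above background. With replicates 2 and 3 alone the 24 h difference of Mog was 0.001 on the log2 scale.

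Mobp, a small basic protein of compact myelin, had levels of -0.38, -0.15 and 0.65 in control and 1.14, 0.44 and -0.02 in OGD cultures at 7 h on its brighter probe. At 24 h its levels were -0.15, 0.06 and -0.12 in control and 1.34, 0.23 and 0.47 in OGD cultures. Every OGD value at 24 h was above every control value, and such a separation, in either direction, was found for 17.9% of all probes. OGD replicate 1 was the highest at both times. The log2 differences were 0.48 ± 0.38 at 7 h and 0.75 ± 0.38 at 24 h (SE, adjusted p = 0.63 and adjusted p = 0.404). Without OGD replicate 1 of that time they were 0.17 and 0.42. The dimmer probe of Mobp went the other way, by -0.37 ± 0.38 at 7 h and -0.15 ± 0.38 at 24 h (SE, adjusted p = 0.721 and adjusted p = 0.9), with overlapping groups at both times.

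**Figure D2:**
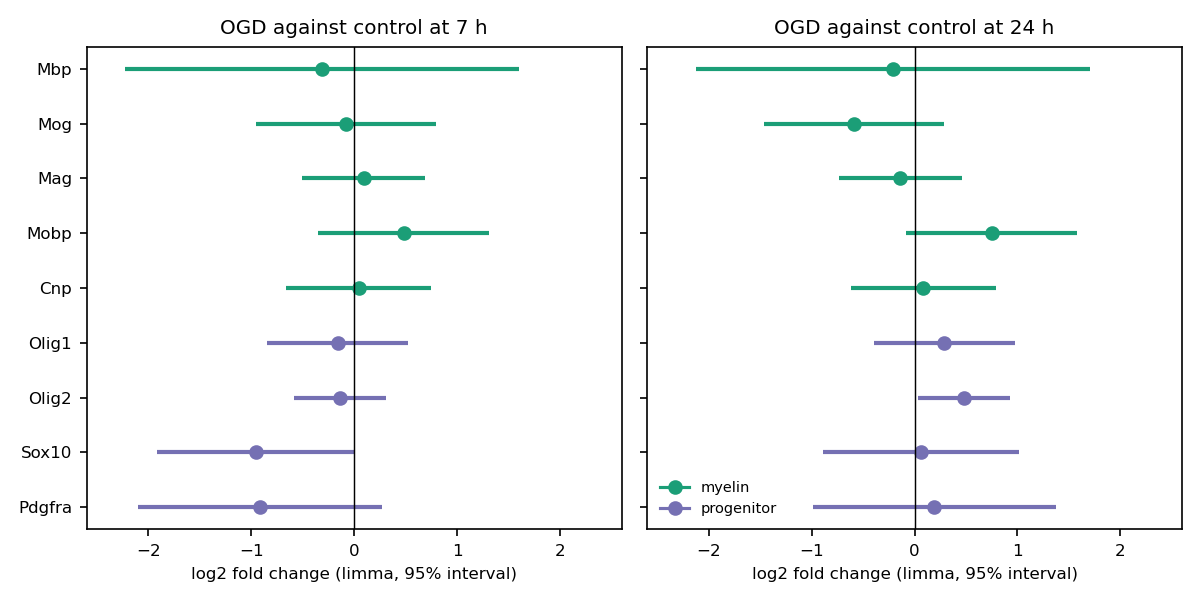
Log2 fold change of OGD against control at 7 h (left) and at 24 h (right) for the 5 myelin genes (green) and the 4 progenitor genes (purple), with points at the limma estimate and bars for its 95% interval, 3 arrays per group. Only the bars of Sox10 at 7 h, which ends at its edge, and of Olig2 at 24 h leave out 0. The widest bars are those of Mbp, from -2.23 to 1.60 at 7 h.

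Mbp, the basic protein that holds the layers of compact myelin together, differed more between replicates than between conditions. On its brighter probe the levels of replicates 1, 2 and 3 were 2.92, 4.0 and 4.89 in control 7 h, 2.49, 3.77 and 4.61 in OGD 7 h, 2.74, 3.45 and 4.94 in control 24 h and 2.12, 3.17 and 5.22 in OGD 24 h. Replicate 1 was the lowest and replicate 3 the highest in each of the 4 groups. The log2 differences between OGD and control were -0.32 ± 0.87 at 7 h and -0.21 ± 0.87 at 24 h (SE, n = 3 per group, adjusted p = 0.892 and adjusted p = 0.961). The 95% intervals of this fit, which does not pair the arrays, included a 2-fold change in either direction at both times. The differences between the arrays of a slide were -0.44, -0.24 and -0.27 at 7 h and -0.62, -0.28 and 0.28 at 24 h, a much narrower range than that of the levels. Without OGD replicate 1 of that time the mean differences were 0.25 at 7 h and 0.48 at 24 h. These fits keep control replicate 1, the lowest control at both times, so they do not compare the arrays of a slide. On the slides of replicates 2 and 3 at 7 h the differences were negative, at -0.24 and -0.27.

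The dimmer probe of Mbp, which the array assigns to another transcript of the gene, gave another pattern. Its levels were 0.56, 0.51 and 0.05 in control 7 h and -1.27, -0.11 and -0.52 in OGD 7 h. At 24 h they were -0.27, -0.36 and -0.67 in control and -2.69, -0.85 and -0.79 in OGD cultures. Every OGD value was below every control value at both times, which was true in either direction of 26.1% of all probes at 7 h and of 17.9% at 24 h. The log2 differences of this probe were -1.01 ± 0.47 at 7 h and -1.01 ± 0.47 at 24 h (SE, adjusted p = 0.439 and adjusted p = 0.377), and its order of replicates was not that of the brighter probe. OGD replicate 1 was the lowest at both times, and without it the differences were -0.69 at 7 h and -0.39 at 24 h. Both probes were well above background on all 12 arrays. Which transcripts each probe takes up in these cultures was not tested.

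The genes whose pattern over the 12 arrays was close to that of a lineage gene were sought among 10895 named genes that were well above background on all arrays and are not among the 9. Likeness was measured as the root mean square difference of the levels, each gene less its own mean. The distance to the brighter Mbp probe was 0.35 log2 units for Itm2a and 0.41 for Crisp3, while the root mean square of Mbp about its own mean was 1.00. Close to Olig2 were Usp54 (0.16) and Lig1 (0.16), and close to Pdgfra were Espl1 (0.27), Nusap1 (0.32) and H6pd (0.34), against 0.35 and 0.76 for the root mean square of Olig2 and Pdgfra themselves. Lig1, Espl1 and Nusap1 encode proteins of DNA replication and cell division. These distances are descriptions over arrays that share groups and slides.

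**Figure D3:**
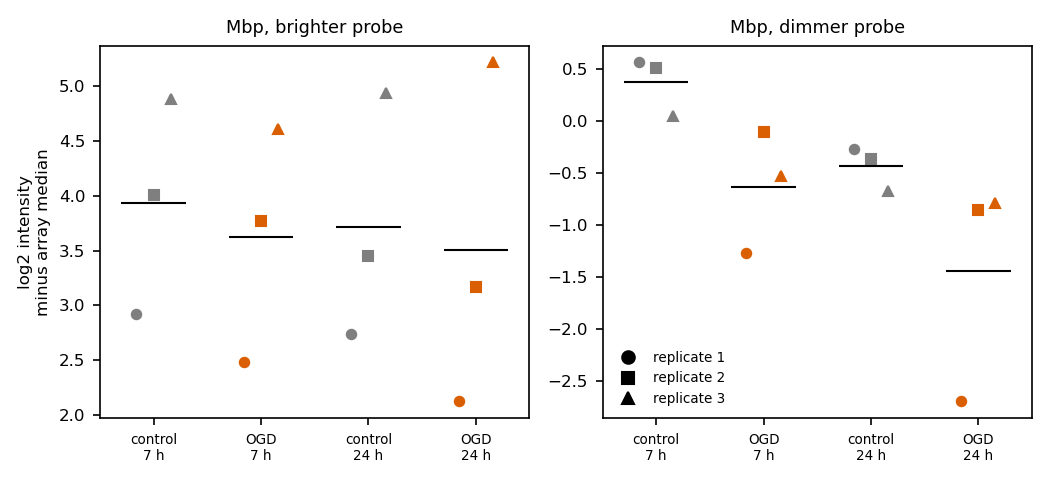
Centered log2 level of the brighter and the dimmer Mbp probe on the 12 arrays, gray for control and orange for OGD, with a circle, square and triangle for replicates 1, 2 and 3 and a line at the mean of 3 arrays. On the brighter probe replicate 3 is the highest of each group, and on the dimmer probe the OGD arrays lie below the controls at both times.

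Set side by side, the progenitor genes were lower than the myelin genes in their response at 7 h and slightly higher at 24 h. At 7 h the median log2 fold change was 0.04 over the 5 myelin genes and -0.54 over the 4 progenitor genes, a gap of 0.58, beside a median of -0.06 over all probes. All 4 progenitor genes had negative differences at 7 h, as did 54.8% of all probes. The gap was uneven across slides. On the slide of replicate 1 the myelin median exceeded the progenitor median by 1.31, on that of replicate 2 by 0.34, and on that of replicate 3 it was below it, at -0.41 (SD of the 3 slides 0.86). The progenitor medians on these slides were -1.34, -0.37 and 0.31, with 4, 4 and 0 of the 4 genes below 0. The myelin medians were -0.03, -0.03 and -0.10. With replicates 2 and 3 alone the gap at 7 h was -0.01 on the log2 scale.

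At 24 h the median log2 fold change was -0.14 over the myelin genes and 0.24 over the progenitor genes, a gap of -0.38, beside a median of 0.01 over all probes. All 4 progenitor genes had positive differences at 24 h, where 48.0% of all probes had negative ones. The gap was -0.16, -0.22 and -0.28 on the slides of replicates 1, 2 and 3 (SD 0.06), with progenitor medians of 0.12, 0.07 and 0.56. The mean of these 3 slide gaps was -0.22, smaller than the gap of the fitted medians. The latter narrowed to -0.01 when control 24 h replicate 3 was left out and to -0.08 without OGD 24 h replicate 1. In OGD cultures at both times the progenitor median was the highest on the slide of replicate 3. These medians are given as descriptions of 9 chosen genes. In the wider lists described next the medians were -0.29 over 16 myelin genes and -0.34 over 9 progenitor genes at 7 h, nearly equal, and 0.10 and -0.03 at 24 h, the opposite order to that of the 9 genes.

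**Figure D4:**
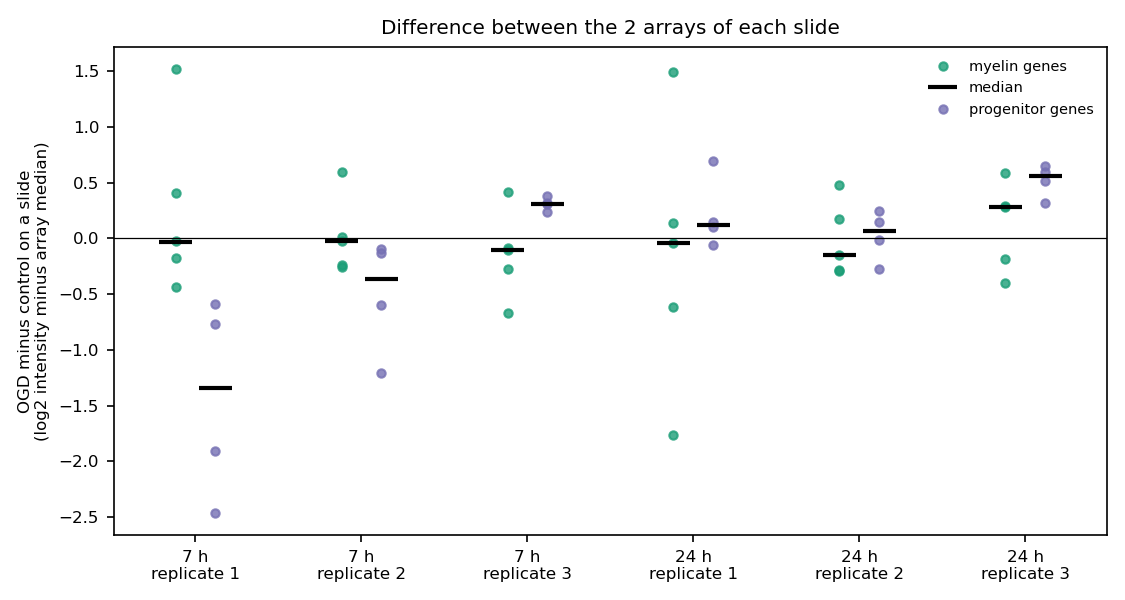
Difference between the OGD and the control array of each slide (centered log2 level, OGD minus control) for the 5 myelin genes (green) and the 4 progenitor genes (purple), with a black line at the median of each set. At 7 h the progenitor medians on the slides of replicates 1, 2 and 3 are -1.34, -0.37 and 0.31, while the myelin medians lie between -0.10 and -0.03.

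A wider list of progenitor genes, 9 of 13 of them measured, was then examined. Of these, 5 had an unadjusted p under 0.05 at 7 h, all lower after OGD, where 7.03% of all probes were lower at that p. Past both thresholds, 3 of the 9 fell, where 1.66% of all probes did. Neu4, a sialidase of oligodendrocytes, had levels of -0.87, -0.42 and -1.18 in control and -3.11, -2.59 and -1.81 in OGD cultures at 7 h. All OGD values of Neu4 were below all control values. At 7 h the groups did not overlap, in either direction, for 26.1% of all probes. It fell by 1.68 ± 0.36 on the log2 scale (SE, limma adjusted p = 0.196), and was not well above background on 1 of the 3 OGD arrays. With normexp background correction the difference of Neu4 was -0.29, with an unadjusted limma p above 0.05. C1ql1, a secreted C1q-like protein of progenitors, had levels of 0.39, 1.12 and 0.71 in control and -0.79, -0.53 and 0.21 in OGD cultures, also without overlap, and fell by 1.11 ± 0.33 (SE, limma adjusted p = 0.277). Cspg4, the NG2 proteoglycan of the progenitor surface that pericytes also carry, had levels of 5.26, 5.42 and 4.79 in control and 3.11, 4.31 and 4.82 in OGD cultures. It fell by 1.07 ± 0.37 (SE, limma adjusted p = 0.322), with replicate 3 of the OGD cultures inside the range of the controls.

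Neu4 and C1ql1 were less dependent on OGD 7 h replicate 1 than Cspg4. Without that array the 7 h differences were -1.38 for Neu4, -0.90 for C1ql1 and -0.59 for Cspg4, with an unadjusted limma p under 0.05 for Neu4 and C1ql1 and above it for Cspg4. The p of Cspg4 was also above 0.05 without control 7 h replicate 2 (-0.94). The number of the 9 genes at an unadjusted p under 0.05 was 2 without OGD 7 h replicate 1, and also 2 with replicates 2 and 3 alone. Sox8, a relative of Sox10, had levels of 1.82, 2.01 and 1.68 in control and 0.38, 1.01 and 1.84 in OGD cultures at 7 h, a log2 difference of -0.76 ± 0.33 (SE, adjusted p = 0.404), and -0.41 without OGD 7 h replicate 1. Gpr17, a receptor of cells that are leaving the progenitor stage, is named, after its values were seen, because it was among the 5. Its levels at 7 h were 0.50, 0.55 and 0.65 in control and 0.25, 0.21 and 0.22 in OGD cultures. This was a small difference of -0.34 ± 0.15 (SE, adjusted p = 0.409), without overlap, as for 26.1% of all probes in either direction at 7 h. Leaving out any array but OGD 7 h replicate 3 at that time took the unadjusted p of Sox8 above 0.05, and leaving out any of the 6 did so for Gpr17.

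At 24 h none of these 5 genes differed at an unadjusted p under 0.05. Neu4 differed by -0.34, C1ql1 by -0.04, Cspg4 by -0.03, Sox8 by 0.42 and Gpr17 by -0.16 on the log2 scale (adjusted p from 0.564 for Sox8 to 1 for Cspg4 and C1ql1). The levels of Cspg4 at 24 h were 5.27, 4.98 and 5.02 in control and 5.33, 4.87 and 4.99 in OGD cultures, almost the same in both groups. Instead 2 other genes of the list were higher after OGD at an unadjusted p under 0.05, where 7.51% of all probes were, and both are named for this reason, after their values were seen. Bcas1, a gene of newly forming oligodendrocytes, had levels of 4.89, 5.25 and 5.49 in control and 6.02, 5.75 and 6.03 in OGD cultures, a log2 difference of 0.72 ± 0.28 (SE, adjusted p = 0.316). Sox6, a factor that holds progenitors in the immature state, had levels of -0.74, 0.00 and 0.38 in control and 1.48, 0.67 and 0.25 in OGD cultures, a log2 difference of 0.92 ± 0.37 (SE, adjusted p = 0.33). Neither reached 2-fold. Without control 24 h replicate 1 or OGD 24 h replicate 1 the unadjusted p of both was above 0.05, with 0.56 and 0.68 for Bcas1 and 0.61 and 0.58 for Sox6, and so was that of Bcas1 without OGD 24 h replicate 3 (0.68).

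**Figure D5:**
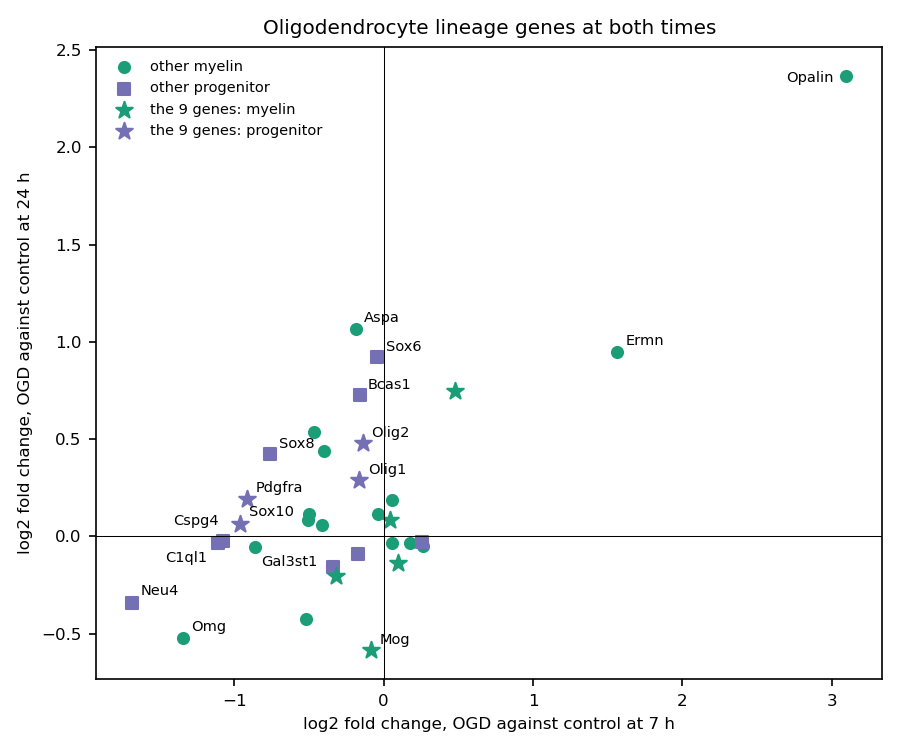
Log2 fold change of OGD against control at 7 h (horizontal) and at 24 h (vertical) for the 9 genes (stars) and for the wider lists of 16 myelin genes (circles) and 9 measured progenitor genes (squares). Neu4, C1ql1, Cspg4, Sox10, Pdgfra and Sox8 lie at -0.76 or lower at 7 h and between -0.34 and 0.42 at 24 h. The myelin gene Gal3st1 lies in the same range, at -0.86 and -0.06, and the myelin gene Omg lies at -1.34 and -0.52. Opalin lies apart, at 3.10 and 2.37.

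The wider myelin list of 16 genes moved in both directions at 7 h. Past both thresholds 2 rose and 1 fell, where 2.08% of all probes were higher and 1.66% lower. At an unadjusted p under 0.05 alone, 3 of the 16 were lower, among them Gal3st1 (-0.86, adjusted p = 0.336), which makes the myelin lipid sulfatide and is named after its values were seen. At 24 h none of the 16 had an unadjusted limma p under 0.05. Without OGD 7 h replicate 1 none of the 16 had an unadjusted p under 0.05 at 7 h. The median log2 fold change of the list was -0.29 at 7 h and 0.10 at 24 h, and 0.04 and 0.35 without OGD replicate 1 of that time.

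Opalin, a membrane protein of mature oligodendrocytes, had the largest change of the 25 further lineage genes measured, at both times. Its levels at 7 h were -0.48, -0.15 and -0.40 in control and 4.88, 2.50 and 0.88 in OGD cultures, and at 24 h -1.10, -1.49 and -0.51 in control and 4.06, 0.31 and -0.36 in OGD cultures. All OGD values were above all control values at both times, and replicate 1 was far the highest of each OGD group. Of all probes, 26.1% at 7 h and 17.9% at 24 h had no overlap, in either direction. Opalin rose by 3.10 ± 1.13 at 7 h on the log2 scale (SE, limma adjusted p = 0.336), and differed by 2.37 ± 1.13 at 24 h (SE, adjusted p = 0.384). Without OGD 7 h replicate 1 the 7 h value was 2.04, with an unadjusted p above 0.05, and with replicates 2 and 3 alone it was 1.97, with a p under it. At 24 h it was 1.01 without OGD replicate 1. Its high arrays were those with the lowest array medians, 234.2 and 130.6 units, and the part of this in the result was not tested. Ermn, a cytoskeletal protein of myelinating cells, rose by 1.56 ± 0.60 at 7 h (SE, adjusted p = 0.355), but was well above background on 1 control and 2 OGD arrays at that time. The p of Ermn was above 0.05 without control 7 h replicate 1 (1.1) or 2 (1.38) or OGD 7 h replicate 1 (1.12), and with replicates 2 and 3 alone Ermn differed by 0.66. Omg, a myelin protein that neurons also make, had levels of 1.98, 1.72 and 1.26 in control and -0.74, 0.55 and 1.12 in OGD cultures at 7 h and fell by 1.34 ± 0.52 (SE, adjusted p = 0.356). Its p was above 0.05 without control 7 h replicate 1 (-1.18) or 2 (-1.31) or OGD 7 h replicate 1 (-0.82).

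Signals known to act on the lineage numbered 22. With an unadjusted p under 0.05, OGD cultures were higher for 2 and lower for 4 of them at 7 h, and higher for 1 and lower for 3 of them at 24 h. Of all probes, 4.79% were higher and 7.03% lower at this p at 7 h, and 7.51% and 6.19% at 24 h. Past 2-fold as well, 2 rose and 2 fell at 7 h, where 2.08% of all probes were higher and 1.66% lower. At 24 h 1 rose and 2 fell, where 3.71% of all probes were higher and 1.96% lower. Without OGD replicate 1 of that time, 1 was higher and 1 lower past both thresholds at 7 h and 0 at 24 h. Bmp2, a bone morphogenetic protein that turns progenitors away from the oligodendrocyte fate, had levels of 0.88, 0.55 and 1.57 in control and 3.04, 2.80 and 3.08 in OGD cultures at 7 h. It rose by 1.98 ± 0.44 at 7 h (SE, limma adjusted p = 0.212) and by 1.32 ± 0.44 at 24 h (SE, limma adjusted p = 0.29). The groups did not overlap at either time, though at 24 h the highest control level was 0.967 and the lowest OGD level 0.973. Of all probes, 26.1% at 7 h and 17.9% at 24 h had no overlap, in either direction. The study also lists Bmp2 from these samples. With replicates 2 and 3 alone the 24 h value was 0.58, and without control 24 h replicate 1 it was 1.08, both with an unadjusted p above 0.05. Without OGD 24 h replicate 1 it was 0.82, under 2-fold. Lingo1, a neuronal and oligodendroglial membrane protein that restrains myelination, fell by 1.14 ± 0.46 at 7 h and by 1.12 ± 0.46 at 24 h (SE, adjusted p = 0.372 and adjusted p = 0.331), with no overlap at either time. Without OGD replicate 1 of that time the differences were -0.80 and -0.52, and the unadjusted p was above 0.05 in these fits, without any 1 control at 7 h, and without control replicate 2 or 3 at 24 h. Pdgfc, a ligand of the receptor that Pdgfra encodes, rose by 1.05 ± 0.37 at 7 h (SE, adjusted p = 0.322) and differed by 0.08 at 24 h, and its unadjusted 7 h p was above 0.05 without control replicate 2, OGD replicate 1 or OGD replicate 2 (0.94, 0.94 and 0.83). Pdgfa, the main ligand of that receptor, differed by 0.05 ± 0.29 at 7 h and by -0.45 ± 0.29 at 24 h (SE, adjusted p = 0.951 and adjusted p = 0.492).

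Hes5, a target of Notch signaling that holds back maturation, was not well above background on any of the 3 OGD arrays at 7 h and was well above it on all 3 controls. Its levels were -3.38, -1.55 and -3.52 in control and -4.57, -5.98 and -5.44 in OGD cultures, at least 1.81-fold lower after OGD (limma adjusted p = 0.227). The bound sets the mean of the controls against the lowest signal that was well above background on each OGD array. That mean includes control replicate 2, at -1.55, the highest of the 3. The bound holds for the main processing only, since with normexp background correction the 7 h difference of Hes5 was 0.234. At 24 h Hes5 differed by -0.38 (adjusted p = 0.799).

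Markers of the other cells of the culture moved as well, and these values stand beside the lineage results. Of 14 neuronal markers, 12 had negative differences at 7 h and 14 at 24 h, with medians of -0.44 and -0.82 on the log2 scale. With an unadjusted p under 0.05 the OGD level was lower for 2 of them at 7 h and for 8 at 24 h, and past 2-fold as well 2 and 5 fell. Of all probes, 7.03% were lower at this p at 7 h and 6.19% at 24 h, and past 2-fold as well 1.66% and 1.96%. The median slide difference of the list at 24 h was -1.78, -0.41 and -0.13 for replicates 1, 2 and 3, each gene less its own mean. Without OGD replicate 1 of that time, the medians were -0.32 and -0.46, the counts at this p were 1 and 3, and those past 2-fold were 0 and 2, with Slc17a7 at -1.02 and Gad2 at -0.76 at 24 h. Among those that fell at 24 h were Slc17a7 (-1.53, adjusted p = 0.269), the vesicular glutamate transporter, Syt1 (-1.18, adjusted p = 0.267), Gad2 (-1.14, adjusted p = 0.295) and Eno2 (-1.06, adjusted p = 0.262), while Rbfox3, which marks neuronal nuclei, differed by -0.50 at 7 h and -0.59 at 24 h (adjusted p = 0.489 and adjusted p = 0.368). All values here are relative to the median of the array, so they share in any shift of that median.

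Of 10 measured astrocyte markers, Slc1a3, Aldoc and Fabp7 had an unadjusted p under 0.05 at 7 h, but their probes were saturated on 5, 11 and 11 of the 12 arrays, so no change is read from them. They were named after their values were seen. Gfap, whose probe was saturated on no array, differed by 0.11 and -0.45 (adjusted p = 0.925 and adjusted p = 0.656). With saturated probes included, 10 of the 10 were positive at 7 h and 8 negative at 24 h, with medians of 0.23 and -0.20. Of all probes, 54.8% and 48.0% were negative. Without OGD replicate 1 of that time 9 of the 10 were positive at 7 h and 9 at 24 h, with medians of 0.19 and 0.11. Of 11 microglial markers, 7 had positive differences at 7 h and 10 at 24 h, with medians of 0.42 and 0.29. Without OGD replicate 1 of that time 7 and 8 were positive, with medians of 0.13 and 0.25. Cx3cr1 rose by 1.02 at 7 h (adjusted p = 0.263), while Aif1 differed by -0.19 and 0.29 (adjusted p = 0.739 and adjusted p = 0.544). Only 6 of the 11 were well above background on all arrays. Of 11 vascular and fibroblast markers, 7 had negative differences at 7 h and 5 at 24 h, with medians of -0.66 and 0.14. The medians of the 4 progenitor genes were -0.54 and 0.24. On the slides of replicates 1, 2 and 3 at 7 h, Pdgfra differed by -2.46, -0.60 and 0.31. Of the 11, Lum differed there by -2.64, -0.35 and -0.12 and Dcn by -2.19, -0.28 and 0.08. Lum and Dcn are named after their values were seen. Positive differences at 7 h were found for 4 of the 11, among them Col1a1, at 0.91, 1.38 and 0.19 on these slides. At an unadjusted p under 0.05, 3 of the 11 were lower at 7 h, where 7.03% of all probes were. At that p 1 was higher at 24 h, where 7.51% of all probes were. Without OGD replicate 1 of that time the medians of the 11 were -0.28 and -0.17. Cldn5 was well above background on 2 controls and no OGD array at 7 h, and is given no fold (limma adjusted p = 0.226). Rgs5 was well above background on 1 control array at 7 h and on no other array, and is given no fold. Pdgfrb, the receptor of pericytes, rose by 1.34 at 24 h (adjusted p = 0.269), and Col1a1 differed by 0.83 and 1.50 (adjusted p = 0.688 and adjusted p = 0.404). The Schwann cell markers, kept as a check because Schwann cells share Sox10, Mbp and Mag, had none past both thresholds at either time, and 3 of the 5 were well above background on all arrays. The log2 of the summed level of the vascular and fibroblast list ran from 5.44 to 7.17 in control 7 h, 5.90 to 7.54 in OGD 7 h, 5.23 to 7.15 in control 24 h and 7.03 to 7.89 in OGD 24 h. That of the neuronal list ran from 9.40 to 9.78, 9.29 to 9.73, 9.51 to 10.04 and 8.42 to 9.53 in the same order. The part of these other cells in the lineage results was not tested.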

How the data were processed

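RNA from 2 wells per condition was labeled with Cy3 by the authors (200 ng) and hybridized to Agilent rat arrays designed on build rn4, 1 culture per array. The deposited intensity of a spot is Feature Extraction's background-subtracted and detrended signal, not normalized between arrays. The deposited log2 values are the authors' median-centered log2 intensities and served as an alternative.

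For each array, outlier spots were removed, intensities were log2-transformed, repeated spots of the same probe were averaged and the array median was subtracted. RefSeq accessions named 18004 of the 30367 probes. The 4 groups entered a single two-sided model in limma 3.58.1 (R 4.3.3), adjusted by Benjamini-Hochberg over all probes. The model had no term for culture or slide, so its SE and p-values treat the arrays as independent. A call needed an unadjusted p under 0.05 and a fold of at least 2, the thresholds of the study's methods. For OGD against control no probe passed an adjusted p of 0.05 (lowest 0.117 at 7 h and 0.209 at 24 h), while 3590 and 4160 probes had an unadjusted p under 0.05. No signal filter was used, and the number of arrays limits the precision. Alternatives covered scaling, background, filters, blocks, tests and left-out arrays, and normexp used the median spot signal.

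The 9 genes and all lists were chosen with earlier results of these data known. From the other lists, called genes with the lowest p-values and fixed markers are named, or a gene is said to be named after its values were seen. Values of some single genes of the lists are not reported here, although the lists' counts include them.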

Additional observations from a re-analysis of the deposited data

Results flagged for a closer look

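The responses to OGD at the 2 times differed from each other, by a limma test of the difference itself, in 9 of the 107 list genes examined. The unadjusted p was under 0.05 for each of the 9, and none passed adjustment over all probes (adjusted p = 1 for each). The 24 h response minus the 7 h response was 1.34 for Neu4, 1.18 for Sox8, 1.07 for C1ql1 and 0.88 for Bcas1 among the progenitor genes. It was 0.68 for Igf1r, the receptor of insulin-like growth factor, and 2.14 for Hes5. The value of Hes5 is no measured size, since it was not well above background on any OGD array at 7 h. Outside the lineage it was -0.71 for Map2, a dendritic protein of neurons, -0.88 for the microglial receptor Cx3cr1 and 1.44 for the pericyte receptor Pdgfrb. Over all probes, 2.18% had a positive and 1.40% a negative difference at this p.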

How the results depend on the processing

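Differences below are on the log2 scale, OGD minus control unless stated, and counts of the 9 genes, of the 9 other progenitor genes and of the 16 other myelin genes are at an unadjusted limma p under 0.05. In the main fit these counts were 1, 5 and 5 at 7 h and 1, 2 and 0 at 24 h, and 1136 and 1721 probes were called. Sox10 at 7 h had a p above 0.05 in 18 of 26 alternatives and Olig2 at 24 h in 12 of 26, counting the reversal named below. The spike-in probes, of which 1 of 10 kinds was usable, moved the median of all probes by -0.85 at 7 h, -1.02 at 24 h and -4.63 between the control groups. It subtracts another constant from each array, so the genes keep their differences from each other within an array.

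With that scaling 353 probes were called at 7 h, with 0 of the 9 genes, 1 other progenitor and 1 other myelin gene, and 538 at 24 h, with 0 of the 9 and 0 other progenitor genes. For the difference between the responses 27 were called, and between the control groups 30346, with all 9 genes lower. Values reversed at 7 h for Mag (-0.703), Mobp (-0.316) and Cnp (-0.754), and at 24 h for Mobp (-0.277), Cnp (-0.941), Olig1 (-0.738), Olig2 (-0.546), Sox10 (-0.965), Pdgfra (-0.832), Sox6 (-0.107) and Bcas1 (-0.302). The difference between the responses reversed for Mbp (-0.119) and Cnp (-0.187), and the control difference between times for Mog (-4.204), Mag (-3.975), Cnp (-4.121), Olig1 (-3.539), Olig2 (-4.38), Sox10 (-3.644) and Pdgfra (-4.454).

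With normexp background correction 2918 probes were called at 7 h, with 2 of the 9 genes and 3 other progenitor genes, 743 at 24 h, with 0 of the 9 and 0 other progenitor genes, 53 for the difference between the responses and 275 between the control groups. Values reversed at 7 h for Mog (0.647), Mag (-0.297), Cnp (-0.313), Pdgfb (0.296) and Hes5 (0.234), and at 24 h for Mog (0.31), Cnp (-0.123), Olig1 (-0.133), Sox10 (-0.232) and Pdgfra (-0.208). With the 75th percentile in place of the median, 0 of the 9 and 3 other progenitor genes were counted at 7 h, and Mog was 0.032. Quantile normalization gave 0 of the 9 at 7 h, 1 other myelin gene at 24 h, 1 of the 9 for the difference between the responses and 872 probes between the control groups. The authors' values gave 0 of the 9 and 3 other progenitor genes at 7 h.

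Keeping probes above background on at least 3 arrays gave 1 of the 9 for the difference between the responses and, between the control groups, 781 probes and 2 of the 9. An intensity floor of 10 gave 377 probes for the difference between the responses and 725 probes and 2 of the 9 between the control groups. The methods' t-test gave 0 of the 9, 3 other progenitor and 1 other myelin gene at 7 h, and 634 probes and 1 other progenitor gene at 24 h. A limma fit of each time alone gave 0 of the 9 and 3 other progenitor genes at 7 h, and 0 and 1 at 24 h. The mean over a gene's probes gave 0 of the 9 and 1 other progenitor gene at 24 h and a myelin minus progenitor gap of -0.185, with Mag at -0.02 at 7 h, 0.056 at 24 h and 0.076 for their difference, and Mobp at 0.037 between the control groups.

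Deviations of the OGD and the control array of a slide, the groups compared, correlated with r from -0.193 to 0.311 on the 6 slides, 3 of them over 0.1, so the numbers were not taken as pairs. Between the 2 times, same-numbered OGD arrays correlated at 0.632, 0.351 and 0.547 and control arrays at 0.497, -0.088 and 0.675, a hint from the data that a number may be shared across times. With the slide as a replicate block there was 1 other myelin gene at 7 h, and 0 of the 9, 1 other progenitor and 1 other myelin gene at 24 h. With the replicate number as a block there were 2 other myelin genes at 24 h and 3 of the 9 between the control groups, and with the slide as a random block 2 of the 9.

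With replicates 2 and 3 alone, 0 of the 9, 2 other progenitor and 2 other myelin genes were counted at 7 h, and 543 probes, 0 of the 9 and 0 other progenitor genes at 24 h. Between the control groups 2253 probes and 3 of the 9 were. Values reversed at 7 h for Mag (-0.064), Mobp (-0.037), Olig1 (0.141) and Olig2 (0.087), at 24 h for Mog (0.001), and for the difference between the responses for Mog (0.036).

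Leaving out 1 array at a time, probes called ranged from 664 to 1750 at 7 h, 814 to 3045 at 24 h, 476 to 960 for the difference between the responses and 918 to 1876 between the control groups. In the same order, 0 to 2, 0 to 2, 0 to 3 and 1 to 3 of the 9 genes were counted. Other progenitor genes ranged from 2 to 5 at 7 h and 0 to 2 at 24 h, and other myelin genes from 0 to 6 and 0 to 2. At 7 h Mbp ranged from -0.823 to 0.252, Mog from -0.151 to 0.011, Mag from -0.16 to 0.289, Cnp from -0.207 to 0.209, Olig1 from -0.419 to 0.072 and Olig2 from -0.267 to 0.014. At 24 h Mbp ranged from -1.063 to 0.484, Mag from -0.356 to 0.047, Cnp from -0.139 to 0.372, Sox10 from -0.12 to 0.198 and Pdgfra from -0.115 to 0.42. For the difference between the responses Mbp ranged from -0.747 to 0.799, Mog from -0.959 to 0.052, Mag from -0.451 to 0.023, Mobp from -0.062 to 0.577 and Cnp from -0.183 to 0.329, and between the control groups Mbp from -0.839 to 0.257 and Mobp from -0.319 to 0.194. The myelin minus progenitor gap ranged from 0.264 to 0.807 at 7 h and from -0.451 to -0.014 at 24 h. The cause of these changes was not tested.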
